A study of Danio rerio with 6 samples.

Results

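The genes described here encode the SR proteins, the hnRNPs, the PTB and PCBP proteins and the kinases that phosphorylate SR proteins, in zebrafish embryos that lack Mettl16. They were chosen by name, as 49 gene symbols, and not by a cutoff on a measured value. Earlier results of these data were known at that point. The gene tables matched 45 identifiers to them, out of 26375 identifiers counted, with 18 SR protein genes, 18 hnRNP genes, 4 PTB and PCBP genes and 5 kinase genes. Of the 49 symbols, 31 were listed under 1 identifier of the same name, and 1 (clk2a) was named through the study's table of splicing events. Another 3 (srsf5b, srsf7b and clk2b) were the only other identifier under a shared name. The a and b copies of SRSF1, SRSF6, HNRNPAB, HNRNPU and PTBP1 each have an identifier, but the tables list both under the human name, so these 10 identifiers are given by number and not as copy a or b. The symbols srsf3b, hnrnpk and ptbp2b each had several candidate identifiers, which are described apart from the 45, and hnrnpa1b was not matched.

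RNA-seq was performed on total RNA of embryos at 3 dpf, from the part of the body behind the head that holds the caudal hematopoietic tissue (CHT), the site where blood stem cells expand in the zebrafish embryo. There were 3 libraries of siblings, labelled mettl16+/+ and untreated, and 3 libraries of untreated mettl16-/- embryos from a line made with CRISPR/Cas9, in which every cell carries the mutation. Each library was a pool of many tails, and the heads were used for genotyping. Because whole tissue was sequenced, fewer cells of a type and less RNA per cell cannot be told apart. Total counts ranged from 16239791 to 18541402 per library. The targeted gene mettl16 had 104, 120 and 117 counts in the siblings against 64, 59 and 86 in the mutants. Its log2 fold change was -0.63, and its adjusted p was not under 0.05 in either edgeR fit described below. The counts check the labels only in part, since a small deletion need not remove the transcript. Muscle markers (summed level 78423 to 97211 CPM) and epidermis markers (22012 to 25926 CPM) were abundant. This does not by itself tell the labelled tissue from other parts of the embryo. The 11 eye and photoreceptor markers summed to 2.21 to 9.52 CPM in siblings and 3.01 to 54.5 CPM in mettl16-/- libraries, and opn1lw1 was at or under 3 counts throughout. The 4 eye markers tested were all higher in the mutants, with a median log2 fold change of 0.859 and a median standard error of 1.08. Whether head tissue contributed to these levels was not tested.

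SR proteins bind short sequences in exons through RNA recognition motifs and recruit the spliceosome through a domain rich in arginine and serine. The hnRNPs bind nascent transcripts, often in introns, and many of them repress the use of nearby splice sites. PTB proteins bind pyrimidine-rich tracts and PCBP proteins bind poly(C) tracts, and both help to decide which exons are included. SRPK kinases phosphorylate SR proteins in the cytoplasm so that they enter the nucleus, and CLK kinases phosphorylate them further in the nucleus. In mammals METTL16 methylates the U6 snRNA of the spliceosome and the MAT2A transcript. Many SR protein and hnRNP genes of vertebrates limit their own mRNA by splicing in an exon with a premature stop codon. A count per gene does not separate such isoforms, so the values here are total levels.

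The comparison of mettl16-/- embryos with siblings asks whether the RNA levels of these splicing regulators differed in the mutants. Protein levels and phosphorylation were not measured in these libraries. As a group they lay close to the sibling level in RNA of the whole tissue. In siblings, blood stem and progenitor markers summed to 39.1 to 44.9 CPM and muscle markers to 78423 to 94310 CPM. A change confined to blood stem and progenitor cells could be missed, and levels per cell type were not measured. Of the 44 members tested, 16 were higher in the mutants and 28 lower, where 49.1% of all genes tested were higher. A log2 fold change between -0.2 and 0.2 was found in 41 members, beside 13696 of all 18487 genes tested. Among the 13990 genes with a mean of at least 50 counts, 11759 lay in that range. Their median log2 fold change was -0.024, beside -0.003 over all 18487 genes tested. None had an adjusted p under 0.05 in edgeR's quasi-likelihood test (0 of 44, smallest adjusted p = 1.0), where 0.124% of all genes tested did. DESeq2 also gave 0 (smallest adjusted p = 0.953), where 60 of all genes had an adjusted p under 0.05. At an unadjusted p under 0.05, edgeR gave 2 members, srsf11 higher and SRSF1 (ENSDARG00000057691) lower, beside 2.17% of all genes tested. DESeq2 gave 2 as well, and its share over all genes is not given. The edgeR count was 1 without sibling replicate 3, without mettl16-/- replicate 2 or without mettl16-/- replicate 3. The split of directions was not stable, with 27 members higher and 17 lower without mettl16-/- replicate 1, and 24 higher and 20 lower without sibling replicate 3. The precision allowed a bound on most members in the whole tissue. In 41 of 44 (93.2%) the 95% interval of the fold change lay within 1.5-fold in either direction, beside 54.5% of all genes tested and 72% of genes with a mean of at least 50 counts. The 3 members with a wider interval were srsf3a, hnrnpa0b and ptbp3, which have low counts or a large spread.

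**Figure D1:**
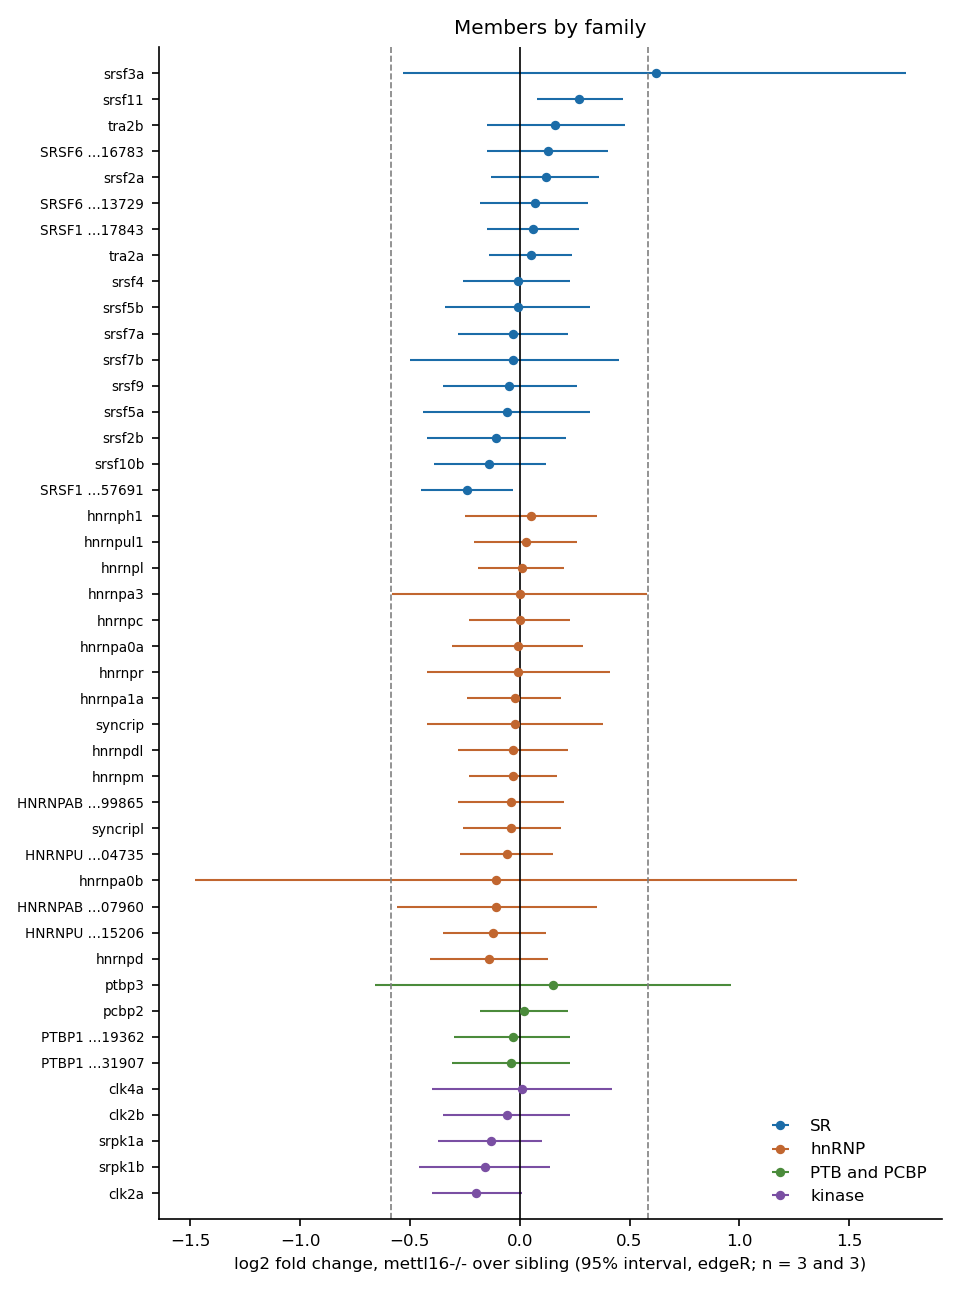
Log2 fold change of mettl16-/- over sibling (x axis) for each of the 44 members tested (y axis), ordered within the families, with points for the edgeR estimate and lines for its 95% interval (3 libraries against 3); dashed lines mark 1.5-fold. Names in capitals with digits are human names with the end of the identifier. All intervals but those of srsf3a, hnrnpa0b and ptbp3 lie within 1.5-fold, and those of srsf11 (0.08 to 0.47) and SRSF1 57691 (-0.45 to -0.03) leave out 0.

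Siblings and mettl16-/- libraries carry replicate numbers, and libraries of the same number deviated together over all genes tested. Over the members alone the correlations were 0.242, 0.529 and -0.248 for numbers 1, 2 and 3, across genes, which are not independent. Between different numbers they ranged from -0.471 to 0.226, so the members alone did not show the pairing for every number. The members include the sparse srsf3a, which moved in opposite directions. Its log2 CPM minus its mean over the 6 libraries was -1.40, -0.02 and 0.43 in siblings and 0.93, 0.59 and -0.52 in mutants. The correlations were not computed without it. In 21 of the 44 members the numbers stood in the same order in both groups, a count not made over all genes. In srsf11 and SRSF1 (ENSDARG00000057691) the order differed between the groups. With the replicate number as a block, edgeR gave 2 members with an adjusted p under 0.05, srsf11 (adjusted p = 0.00371) and SRSF1 (ENSDARG00000057691, adjusted p = 0.0454), beside 1.04% of all genes tested. At an unadjusted p under 0.05 the blocked fit gave 5 members, beside 9.2% of all genes tested. The other 3 were srsf2a (log2 fold change 0.12), HNRNPAB (ENSDARG00000007960, -0.11) and clk2a (-0.20), with adjusted p-values of 0.484, 0.446 and 0.251 in edgeR with the block. Both adjusted calls were lost, with 4 libraries left, without both libraries of number 2 or of number 3. For srsf11 the log2 fold change was then 0.25 and 0.25 (adjusted p = 0.112 and 0.22 in edgeR with the block), close to 0.27 with all libraries. For SRSF1 it was -0.25 and -0.15 (adjusted p = 0.271 and 0.736).

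In 4 members the groups did not overlap, beside 6.89% of all genes tested. These were srsf11 and tra2a, in which every mettl16-/- library exceeded every sibling library, and SRSF1 (ENSDARG00000057691) and clk2a, lower in each. Such separation occurred in 3.46% of all genes upward and in 3.43% downward. It was small for tra2a, which encodes a Transformer 2 protein that binds exonic enhancers. Its level was 56.8, 58.0 and 57.8 TMM-scaled CPM in siblings and 60.7, 58.8 and 59.0 CPM in the mutants, and the log2 fold change was 0.05 (95% interval -0.14 to 0.24).

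Among the SR protein genes, 8 of the 17 tested were higher and 9 lower, with a median log2 fold change of -0.009. The gene srsf11 (ENSDARG00000098574) encodes an SR-related protein known in mammals to act in splice site recognition and in the inclusion of neuronal microexons. Its level was 159, 157 and 164 TMM-scaled CPM in sibling replicates 1, 2 and 3 and 182, 195 and 204 CPM in mettl16-/- replicates 1, 2 and 3, from 2697 to 3494 counts per library. The lowest mettl16-/- library lay above the highest sibling library. The mean was 160 ± 3.52 CPM in the siblings and 194 ± 11.4 CPM in the mutants (SD, n = 3 per group), which is 1.21-fold. Without the block the log2 fold change was 0.27 with a standard error of 0.0878 and a 95% interval of 0.08 to 0.47. With the block the standard error was 0.052 and the interval 0.17 to 0.38 (adjusted p = 0.00371 in edgeR). In edgeR without the block its adjusted p was 1.0. The log2 fold change stayed at 0.23 to 0.32 whichever single library was dropped.

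SRSF1 is the founding SR protein, needed for constitutive splicing and for the choice between competing 5′ splice sites. The identifier ENSDARG00000057691 had 129, 132 and 148 CPM in the siblings against 122, 114 and 110 CPM in the mutants. The groups were close in replicate 1 and furthest apart in replicate 3. The mean was 136 ± 10.1 CPM in the siblings and 115 ± 6.09 CPM in the mutants (SD, n = 3 per group). The log2 fold change was -0.24 (standard error 0.0946, 95% interval -0.45 to -0.03, adjusted p = 1.0 in edgeR and 0.0454 in edgeR with the block). It ranged from -0.28 to -0.18 with any single library dropped. From replicate 1 to 3 the siblings rose and the mutants fell, so the replicate numbers did not run together for this identifier. With the block its standard error was 0.0599 all the same. The other SRSF1 identifier, ENSDARG00000017843, had 41.0, 41.9 and 38.3 CPM in the siblings against 40.0, 42.3 and 44.0 CPM in the mutants. These groups overlapped, and the log2 fold change was 0.06 (95% interval -0.15 to 0.27). Of the 49 symbols, srsf1a is the only one that shares a chromosome with mettl16 in the RefSeq annotation of GRCz12tu. Which of both identifiers is srsf1a is not told by the tables, and the part of linkage to the mutation was not tested.

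**Figure D2:**
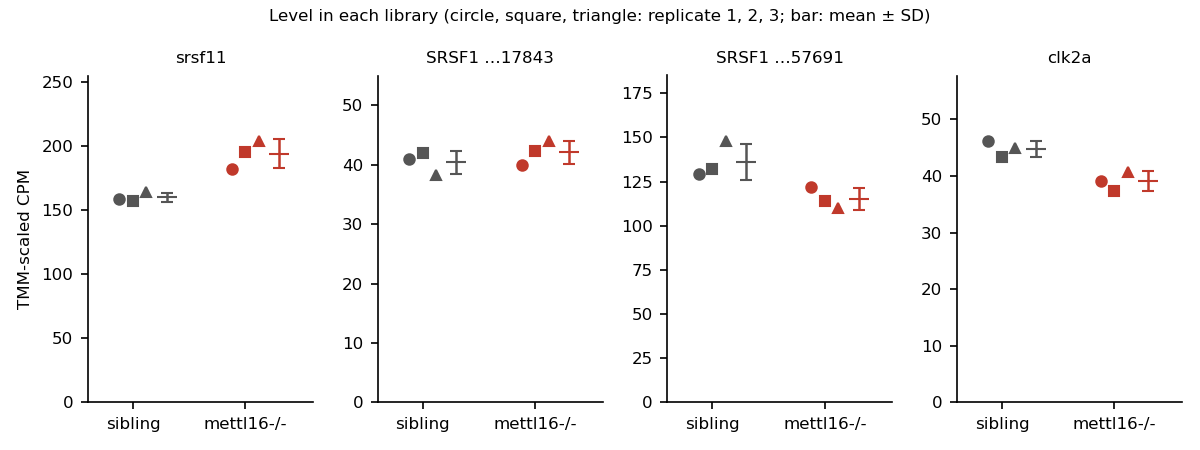
TMM-scaled CPM (y axes, from 0, one scale per gene) in each library of siblings (grey) and mettl16-/- embryos (red) for srsf11, both SRSF1 identifiers and clk2a, with the mean ± SD beside the 3 points. For srsf11 the siblings lie at 157 to 164 CPM and the mettl16-/- libraries at 182 to 204 CPM, while SRSF1 17843 overlaps between the groups.

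The SR protein gene with the most counts was srsf5a, whose protein is a classical SR protein with tandem RNA recognition motifs. It had 205, 252 and 294 CPM in the siblings against 200, 228 and 293 CPM in the mutants. The order of the replicate numbers was the same in both groups, and the log2 fold change was -0.06 (95% interval -0.44 to 0.32). The gene srsf5b followed the same order, with 109, 134 and 144 CPM in the siblings against 104, 134 and 146 CPM in the mutants (log2 fold change -0.01). The lowest counts were those of srsf3a, whose protein is among the smallest SR proteins and couples splicing to mRNA export. It had 13, 42 and 50 counts in the siblings against 68, 60 and 25 counts in the mutants. The groups overlapped, and its log2 fold change of 0.62, the largest of the members, had a 95% interval of -0.53 to 1.76. The gene srsf10a was at 0 counts in all 6 libraries, which allows a level of at most 0.188 CPM per library and covers counting error only. Its copy srsf10b, which encodes a splicing repressor when dephosphorylated, was measured at 375 to 524 counts (log2 fold change -0.14, 95% interval -0.39 to 0.12).

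The other SR protein genes overlapped between the groups. The log2 fold changes were 0.12 for srsf2a and -0.11 for srsf2b, which encode SRSF2, a protein that binds both purine-rich and pyrimidine-rich enhancers. For SRSF6 they were 0.07 (ENSDARG00000013729) and 0.13 (ENSDARG00000016783). The genes srsf4, srsf7a, srsf7b and srsf9 lay between -0.05 and -0.01. The gene tra2b, which encodes the other Transformer 2 protein, had a log2 fold change of 0.16 (95% interval -0.15 to 0.48).

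All 18 hnRNP genes tested had a log2 fold change between -0.14 and 0.05, with 5 higher and 13 lower and a median of -0.025. In edgeR 0 of the 18 had an unadjusted p under 0.05, beside the 2.17% of all genes. With the block 1 did, beside 9.2%. The gene with the most counts was HNRNPAB (ENSDARG00000007960), whose protein binds AU-rich RNA. It had 467, 683 and 679 CPM in the siblings against 422, 638 and 639 CPM in the mutants. In both groups replicate 1 was far below the others, and within each number the mettl16-/- library was the lower of the pair. The log2 fold change was -0.11 (standard error 0.197) without the block. The hnRNP genes with the smallest p were hnrnpd and HNRNPU (ENSDARG00000015206). The gene hnrnpd, whose protein AUF1 speeds the decay of AU-rich mRNAs, had 37.4, 45.7 and 38.8 CPM in the siblings against 34.0, 41.6 and 35.0 CPM in the mutants (log2 fold change -0.14, 95% interval -0.41 to 0.13, unadjusted p = 0.265 in edgeR). HNRNPU, a nuclear matrix protein that binds RNA and chromatin, had 36.1, 39.1 and 32.6 CPM and 34.7, 33.2 and 31.5 CPM (log2 fold change -0.12, 95% interval -0.35 to 0.12). Both genes overlapped between the groups.

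Several hnRNP genes differed almost not at all in their means. The gene hnrnpc, whose protein packages nascent transcripts and binds uridine tracts, had 32.6, 38.7 and 34.6 CPM in the siblings against 34.1, 35.2 and 36.6 CPM in the mutants (95% interval of the log2 fold change -0.23 to 0.23). The gene hnrnpl, whose protein binds CA repeats, had 176, 170 and 176 CPM and 179, 163 and 183 CPM (-0.19 to 0.20). The gene hnrnpa1a, which encodes a repressor that competes with SR proteins, had 178, 182 and 166 CPM and 156, 176 and 185 CPM (-0.24 to 0.19). For these genes a difference of 1.5-fold lay outside the interval. The gene hnrnpa0b was measured poorly, with 59, 164 and 94 counts in the siblings against 32, 179 and 71 counts in the mutants and a 95% interval of -1.48 to 1.26.

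Of the PTB and PCBP genes, 2 were higher and 2 lower, with a median log2 fold change of -0.007. In edgeR 0 of 4 had an unadjusted p under 0.05 with or without the block, beside 9.2% and 2.17% of all genes. PTBP1 represses neuronal and muscle exons. Its identifier ENSDARG00000031907 had 56.3, 76.9 and 72.7 CPM in the siblings against 65.8, 68.5 and 66.1 CPM in the mutants, and the mettl16-/- libraries lay within the range of the siblings (log2 fold change -0.04). The other, ENSDARG00000019362, was at -0.03 (95% interval -0.30 to 0.23). The gene pcbp2, whose protein binds poly(C) tracts in mRNA, had 168, 162 and 173 CPM in the siblings against 161, 165 and 184 CPM in the mutants (log2 fold change 0.02, 95% interval -0.18 to 0.22). The gene ptbp3 was sparse, at 33, 18 and 29 counts in the siblings against 25, 35 and 26 counts in the mutants, and its log2 fold change of 0.15 had an interval of -0.66 to 0.96.

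Of the kinase genes 4 of 5 were lower, with a median log2 fold change of -0.135. In edgeR 0 of 5 had an unadjusted p under 0.05, beside 2.17% of all genes tested. With the block 1 (clk2a) did, beside 9.2%. The gene clk2a (ENSDARG00000062954) encodes a nuclear kinase of SR proteins. It had 46.2, 43.4 and 44.9 CPM in the siblings against 39.2, 37.3 and 40.7 CPM in the mutants. The highest mettl16-/- library lay below the lowest sibling library, and the log2 fold change was -0.20 (standard error 0.0925, 95% interval -0.40 to 0.01, unadjusted p = 0.0575 in edgeR). It was between -0.23 and -0.17 with each library left out. The genes srpk1a and srpk1b encode the cytoplasmic kinase. The gene srpk1a had 31.9, 30.8 and 29.7 CPM in the siblings against 26.7, 26.7 and 30.8 CPM in the mutants, and the groups overlapped through mettl16-/- replicate 3 (log2 fold change -0.13, 95% interval -0.37 to 0.10). For srpk1b the log2 fold change was -0.16 (95% interval -0.46 to 0.14) and for clk2b it was -0.06 (-0.35 to 0.23). The gene clk4a, another nuclear kinase, had 68.5, 45.2 and 50.7 CPM in the siblings against 66.9, 46.0 and 52.3 CPM in the mutants. Replicate 1 was the highest in both groups, and the log2 fold change was 0.01 (95% interval -0.40 to 0.42). The kinase median depended on the libraries. It was -0.007 with the block and without both libraries of number 2, and -0.227 without both of number 3.

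Most members of these families are kept in zebrafish as a pair of copies, and the ratio of the copies within a library does not depend on how libraries were scaled. Of 16 pairs, 14 were measured and 13 could be compared. In 10 of the 13 the log2 ratio of the copies differed by less than 0.2 between the groups. In 2 the groups did not overlap. Separation was not counted over other pairs of genes, so this number is not read as particular to these pairs. The log2 ratio of SRSF1 ENSDARG00000057691 over ENSDARG00000017843 was 1.66, 1.65 and 1.95 in siblings and 1.61, 1.43 and 1.33 in mettl16-/- embryos, a difference of -0.30. It was -0.38 to -0.20 with each library left out. The log2 ratio of clk2b over clk2a was -1.93, -1.73 and -1.79 in siblings and -1.59, -1.71 and -1.73 in mettl16-/- embryos, a difference of 0.14. It was largest in number 1, and was 0.08 without sibling replicate 1 and 0.10 to 0.18 without any other library. For both pairs p was 0.10 in a two-sided exact permutation test, the smallest that 3 libraries against 3 allow, and 0.65 after adjustment over the 13 pairs. The pair of hnrnpa0b over hnrnpa0a had a difference of -0.32 (two-sided exact permutation test, p = 0.70, n = 3 each) with ratios from -6.47 to -4.46 among the mettl16-/- libraries. In 11 of the 13 pairs both copies had a log2 fold change of the same sign. In several of these both changes were very small, such as -0.02 for syncrip and -0.04 for syncripl, or -0.03 for both srsf7a and srsf7b. No such count was made for other pairs of genes, so the shared sign is not read as a joint change.

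**Figure D3:**
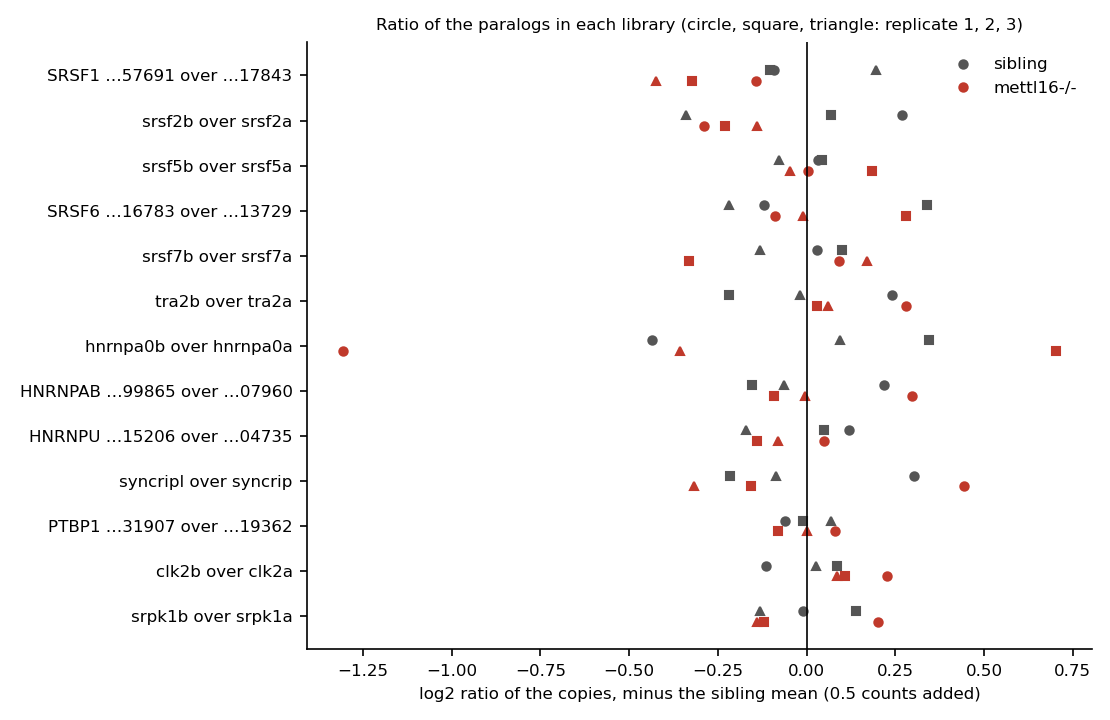
Log2 ratio of the paralogs in each library minus the mean of the sibling libraries (x axis) for the 13 pairs compared (y axis), with siblings in grey and mettl16-/- embryos in red and a symbol per replicate number. The groups separate for SRSF1 and for clk2b over clk2a, and the ratios of hnrnpa0b over hnrnpa0a spread widest.

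How the authors' counting divided reads that fit both copies is not stated in the sources used here, so the counts of each pair were also summed. The log2 fold change of the 14 sums ranged from -0.17 to 0.09. In edgeR 0 sums had an adjusted p under 0.05 and 0 an unadjusted p under 0.05. With the block 0 had an adjusted p under 0.05 and 3 an unadjusted one, where 9.2% of all single genes tested did. These sums were SRSF1 (adjusted p = 0.196 in edgeR), clk2 (0.342) and srpk1 (0.543), all lower. The summed counts of SRSF1 were 2890, 3382 and 3111 in siblings and 2592, 2798 and 2577 in the mutants, and the log2 fold change was -0.17 (95% interval -0.36 to 0.02). The call of the single SRSF1 identifier was therefore not kept by the sum of both. The log2 fold change of the clk2 sum was -0.17 and that of the srpk1 sum was -0.15.

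Several members varied between replicate numbers in both groups. The range over the means of the 3 numbers had a median of 0.26 log2 among the members and 0.34 log2 among all genes tested. This range was larger than the difference between the groups in 81.8% of the members and in 87.1% of all genes tested. A range over 3 means tends to exceed a difference between group means even where the number has no effect. These shares therefore do not measure an effect of the number. In 21 members the numbers stood in the same order in both groups, and 27 members were lowest and 8 highest in number 1. These 3 counts were not made over all genes, so they are not read as particular to the members. Apart from the sparse hnrnpa0b and hnrnpa3, the widest ranges were those of hnrnpr (0.58 log2), HNRNPAB ENSDARG00000007960 (0.57), srsf5a (0.53) and syncrip (0.53), which were low in number 1, and clk4a (0.57), which was high in it. The gene syncrip, whose protein hnRNP Q binds mRNA in the cytoplasm and nucleus, had 261, 347 and 361 CPM in the siblings against 242, 352 and 365 CPM in the mutants. The gene hnrnpr had 88.1, 113 and 121 CPM and 82.4, 104 and 134 CPM.

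**Figure D4:**
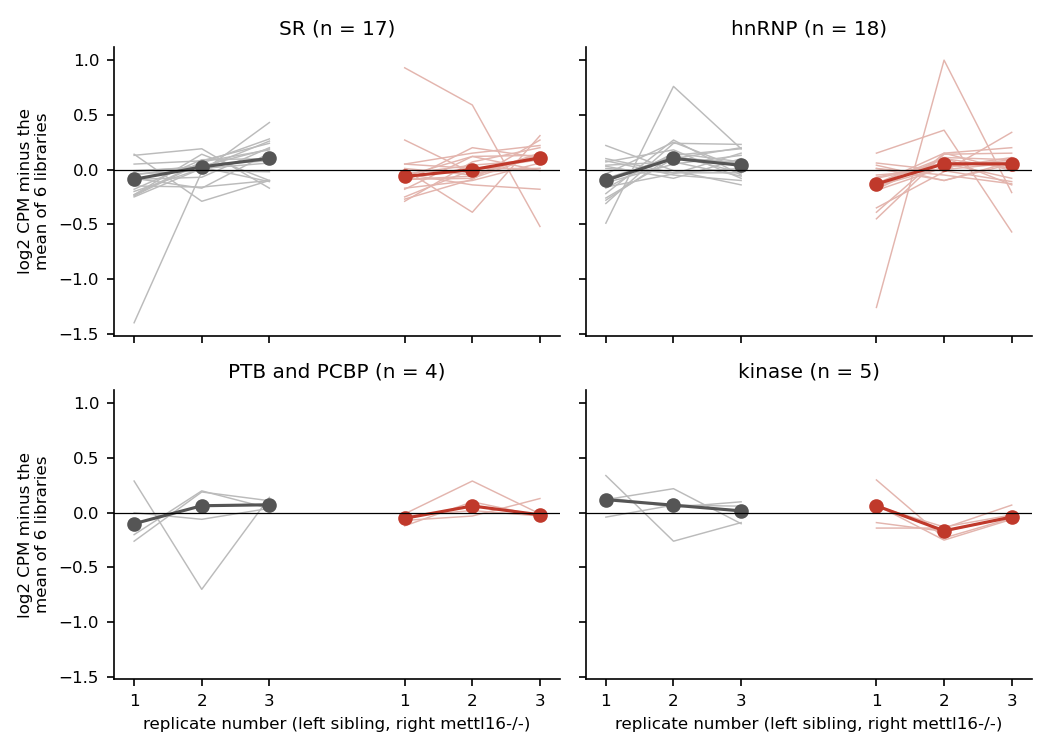
Log2 CPM of each member minus its mean over the 6 libraries (y axes) by replicate number (x axes, siblings left in grey, mettl16-/- embryos right in red), 1 panel per family, with thin lines for members and thick lines with points for the family median. The SR medians are lowest in number 1 (-0.089 and -0.063) and highest in number 3 (0.103 and 0.107) in both groups.

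Other genes of the splicing machinery were set beside these families, from lists chosen by function with earlier results of these data known. Among 17 genes of the U5 snRNP, the tri-snRNP and related proteins, 15 were higher and the median log2 fold change was 0.486. In edgeR 4 of them had an adjusted p under 0.05, all higher, beside 0.114% of all genes upward, and 11 did with the block, beside 0.649%. The 4 were snrnp200, which encodes the helicase that unwinds U4 from U6 (log2 fold change 1.04), the GTPase gene eftud2 (1.11), prpf31 (1.0) and prpf3 (1.08), with adjusted p-values of 0.00403, 0.01, 0.014 and 0.014 in edgeR. The other 7 that passed with the block were prpf8, which encodes the scaffold of the catalytic core (0.50), prpf6 (0.38), prpf4 (0.76), sart1 (0.67), usp39 (0.49), snrnp27 (0.48) and ddx23 (0.58). Of the 53 general splicing regulators tested, 29 were higher and 24 lower with a median of 0.010. In edgeR 0 had an adjusted p under 0.05 and 3 an unadjusted one, all higher, where 2.17% of all genes tested had an unadjusted one. With the block 8 higher and 6 lower genes had an unadjusted p under 0.05, beside 9.2% of all genes tested. An adjusted p under 0.05 with the block was found for 3, all higher, beside 0.649% of all genes upward. These were srrm2, a large coactivator rich in serine and arginine (log2 fold change 0.36, adjusted p = 0.00253 in edgeR with the block), and luc7l and luc7l3, which encode partners of the U1 snRNP (0.38 and 0.35, adjusted p = 0.00025 and 0.00371). The counts of luc7l were 1245, 1515 and 1201 in siblings and 1477, 1755 and 1661 in mettl16-/- embryos, and the groups did not overlap after scaling.

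Of 18 genes for the import of SR proteins and the export of RNA, 9 were higher and 9 lower with a median of 0.005. With the block 1 had an adjusted p under 0.05, beside 1.04% of all genes tested. This was eif4a3, a core protein of the exon junction complex (log2 fold change 0.24, adjusted p = 0.0315 in edgeR with the block and 1.0 without). Of 17 further SR, hnRNP, PTB, PCBP and kinase relatives, of 30 tissue-restricted splicing regulators and of 9 nonsense-mediated decay factors, 0 had an adjusted p under 0.05 in edgeR with or without the block. At an unadjusted p under 0.05 these lists had 0 genes in edgeR, beside 2.17% of all genes tested. They had 3, 1 and 0 genes with the block, beside 9.2%. Their medians were -0.012, -0.046 and -0.053.

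**Figure D5:**
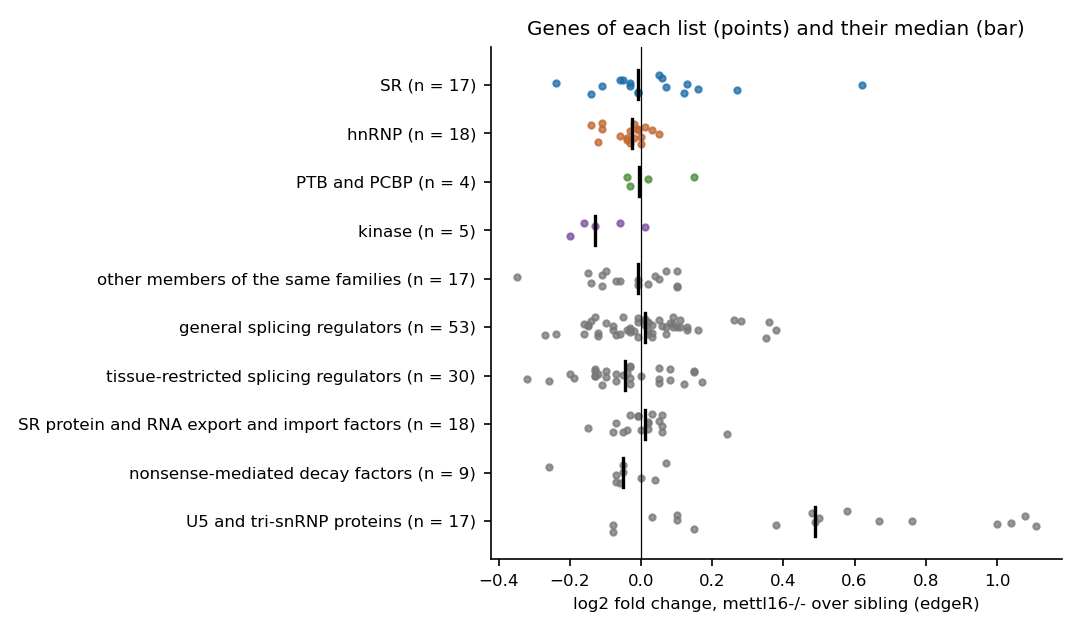
Log2 fold change of mettl16-/- over sibling (x axis) for the genes of each list (y axis, number of genes tested in brackets), with points for genes and bars for the median. The medians of the 4 families lie between -0.135 and -0.007, and the U5 and tri-snRNP list has a median of 0.486.

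Levels of tissue markers are given beside these values, and their part in them was not tested. All 6 exocrine pancreas markers tested were lower, with 1 adjusted p under 0.05 in edgeR, and their summed levels were 41.6 to 162 CPM in siblings and 15.6 to 29.4 CPM in mettl16-/- libraries. In the other lists 0 markers had an adjusted p under 0.05, and at an unadjusted p under 0.05 edgeR gave 2 liver markers and 1 each of the intestine, myeloid and blood stem and progenitor markers, and 0 in the rest. With the block, an adjusted p under 0.05 was given to 3 exocrine pancreas, 4 liver and 1 intestine markers, all lower. It was also given to 1 muscle and 1 erythroid marker, both higher. Over all genes tested the shares were 2.17% unadjusted in edgeR and 1.04% adjusted with the block. The liver markers (11 of 11 lower) summed to 8944 to 10353 against 8631 to 9079 CPM, and the intestine markers (8 of 8 lower) to 4326 to 5393 against 3934 to 4658 CPM. Muscle markers (11 of 11 higher) summed to 78423 to 94310 against 89437 to 97211 CPM, and erythroid markers (7 of 7 higher) to 1797 to 2405 against 1909 to 2764 CPM. Myeloid markers (6 of 9 tested lower) summed to 99 to 111 against 96.5 to 105 CPM, and blood stem and progenitor markers (4 of 5 tested lower) to 39.1 to 44.9 against 38.1 to 39.7 CPM. Markers of dividing cells (9 of 11 lower) summed to 805 to 837 against 738 to 830 CPM, and neuron markers (7 of 11 lower) to 877 to 992 against 877 to 935 CPM. The sums of all of these lists but the exocrine pancreas overlapped between the groups.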

How the data were processed

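Total RNA of the trunk region with the CHT was sequenced in 6 libraries (3 siblings and 3 mettl16-/-). Per the submitters' processing notes and the study's methods, reads were handled with CASAVA 1.8 and fastp 0.18.0, those on ribosomal RNA were removed with Bowtie2, and the rest were mapped to GRCz11 with HISAT2 and assembled with StringTie 1.3.1. The authors deposited whole-number counts per gene, without normalization and with no columns of their own comparisons. The use of strand and of reads with several matches is not given in the sources used here, so counts of near-identical copies and of neighbours (srsf7a and hnrnpl, hnrnpd and hnrnpdl) are uncertain. Names came from tables of gene names, and no coordinates are printed because the annotation at hand is of another build (GRCz12tu).

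Counts were scaled by TMM, filtered with filterByExpr and tested by the robust quasi-likelihood F test of edgeR 4.0.16 (R 4.3.3), and p-values of the 18487 genes kept were adjusted by the Benjamini-Hochberg method. CPM are TMM-scaled, and intervals are 95%. The study used DESeq2, which (version 1.42.0) was an alternative, beside DESeq2 size factors, other filters, robust=FALSE, the replicate block and each library left out. Pair ratios used a prior of 0.5 counts. The scripts were tested on simulated data. The depth of 16239791 to 18541402 counts limits low genes: 3 counts are at most 0.188 CPM.

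The methods name no pairing, so the main test had no block. The intervals and the 1.5-fold bound are from this test. Its median standard error over the members was 0.116, against 0.0621 with the block. Over all genes tested, deviations from the group means correlated at 0.584, 0.31 and 0.516 between libraries of the same number. Between different numbers they correlated at -0.443 to -0.0372. Deviations from a group mean cancel out within the group, so the negative values follow in part from the positive ones. The numbers were taken to pair the libraries on the values of the same number, although over the members alone number 3 gave -0.248. What a number stands for is not stated, nor whether libraries of a group came from separate crosses, so p-values measure only the spread between these libraries.

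Values per library are given for members with an unadjusted p under 0.05 (or an adjusted one with the block), the members of each family with the smallest p and the most counts, the SRSF1 pair and srsf10a. Those of tra2a, srsf5b, srsf3a, hnrnpa0b, hnrnpc, hnrnpl, hnrnpa1a, hnrnpr, syncrip and the clk2 pair were added after their values were seen. Genes of other lists are named where they passed with or without the block. The members and lists were chosen with earlier results of these data known.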

Additional observations from a re-analysis of the deposited data

How the results depend on the processing

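With the replicate block the number of members with an adjusted p under 0.05 was 2 in place of 0, beside 1.04% of all genes tested in place of 0.124%. It was also 2 without both libraries of number 1, where 232 of all genes passed. In the other alternatives of scaling, filter, tool and libraries it was 0. At an unadjusted p under 0.05, counted after seeing the data, it was 5 with the block, beside 9.2% of all genes tested. It was 4, 5 and 7 with the block and without number 1, 2 or 3. With a mean of at least 50 counts it was 3, and with single libraries left out 1 to 2. The share of all genes was 2.17% in the main test and is not given for these further settings. The kinase median with the block was -0.007 without number 2 and -0.227 without number 3. Non-overlapping members numbered 4 with all libraries, beside 6.89% of all genes tested. With single libraries left out they numbered 4 to 9. The share of all genes was not computed for those settings, in which fewer libraries separate more easily. Small changes turned sign. With single libraries left out, srsf5a ranged from -0.23 to 0.07, HNRNPAB ENSDARG00000007960 from -0.26 to 0.07, pcbp2 from -0.04 to 0.06, PTBP1 ENSDARG00000031907 from -0.16 to 0.05, ptbp3 from -0.12 to 0.35 and clk4a from -0.15 to 0.20. With the block, PTBP1 was 0.04 and ptbp3 -0.24 without number 2, and without number 3 SRSF1 ENSDARG00000017843 was -0.01, pcbp2 -0.02, PTBP1 0.02 and clk4a -0.0041. The cause was not tested. With a mean of at least 50 counts, 42 members were tested, 12 higher and 30 lower. Low counts went with wide intervals for srsf3a and ptbp3, and srsf10a had 0 counts in every library.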

Other observations

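The candidate identifiers of the 3 symbols with several matches lay near the sibling level. The SRSF3 identifier ENSDARG00000025397 had 42.1, 40.4 and 40.1 CPM in siblings and 42.2, 45.0 and 47.7 CPM in mettl16-/- embryos. The groups did not overlap by a narrow margin, and the log2 fold change was 0.14 (95% interval -0.07 to 0.35). The other SRSF3 identifier, ENSDARG00000059360, had an interval of -0.22 to 0.22. Both HNRNPK identifiers, whose protein binds poly(C) RNA, had a log2 fold change of -0.01. The PTBP2 identifiers, for the PTB protein of neurons, were at -0.13 (ENSDARG00000015901) and -0.04 (ENSDARG00000101947).

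The identifier listed as HNRNPA1L2 (ENSDARG00000036675), a relative of hnrnpa1a, had 3575, 3974 and 3338 counts in siblings and 3131, 3481 and 3014 in mettl16-/- embryos. After scaling the groups did not overlap, with a log2 fold change of -0.11 (adjusted p = 1.0 in edgeR and 0.505 with the block). It was not taken as hnrnpa1b, since the tables do not link the names.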
